A study of Homo sapiens with 16 samples.

Results

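The genes described here are 47 interferon-stimulated and nucleic acid sensing genes, a list of effectors, RNA sensors, transcription factors and other genes that cells switch on after interferon, followed over 16 arrays of 3 established lines of human tumour cells, H4, 42MGBA and HCT116. They are listed by name as known interferon-induced genes, with earlier results of these data in view, and each was represented by its single-gene probe set row with the highest mean. Of the 47 genes, 45 had such a row among 18417 genes, and 44 passed the filter on low values that left 12978 genes for testing. RSAD2, which makes an antiviral nucleotide analogue, lay above the array median on 0 arrays and was not tested. STAT2 was not analysed here because no single-gene row was in use for it, and GBP1 shared its only row with GBP1P1 and GBP3.

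The study set STAG2-deficient against STAG2-proficient cultures of each line, with no treatment and RNA from growing cells. STAG2 is a subunit of cohesin, the complex that encircles DNA and pairs the sister chromatids. H4 and 42MGBA are labelled glioblastoma lines that carry a STAG2 mutation. The H4 deficient group was the parental culture and the non-recombinant clones 10 and 12, and the H4 corrected group was the knock-in post-Cre clones 8-1, 8-3 and 88-1, of which 8-1 and 8-3 share a parent clone by their names. The 42MGBA deficient group was the parental culture and the pre-Cre knock-in clones 53 and 92, and the 42MGBA corrected group was the post-Cre clones 53-1, 53-7 and 92-6, whose names place them in the families of clones 53 and 92. HCT116 is a colorectal cancer line with an intact gene: its STAG2 knockout clones were 7 and 21, and its non-recombinant wild-type clones were 24 and 27. Each array was 1 culture, and apart from the parental cultures each was a different clone, so clone and replicate cannot be told apart. The labels do not say that cultures were repeated, so the p-values measure the spread between these arrays.

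Interferons are secreted proteins that act through surface receptors and the JAK kinases. Type I and type III interferons act on genes that carry a DNA element called the interferon-stimulated response element (ISRE), to which IRF9 binds, and type II interferon acts on genes with the gamma-activated site (GAS). Cells make interferon when sensors such as RIG-I (RIGI), MDA5 (IFIH1) or cGAS meet RNA or DNA in the wrong place. Many tumour lines express part of this gene set in culture without added interferon.

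The ISRE core, searched as GAAANNGAAA or on the other strand TTTCNNTTTC, was present in the promoter windows of 25 of the 38 members found in the RefSeq promoter table of build GRCh38.p14, against 4.38% of all 27305 genes there. A window ran from 250 bases before to 50 bases after a start site, and overlapping matches were all counted. The GAS core TTCNNNGAA, which reads the same on both strands, was in 11 of 38 members and in 9.38% of all genes. Stretches from 5 of these promoters are shown because their genes recur below: BST2 carries the only STAG2 call, IFI44L and IFI6 had the widest ranges in 42MGBA, IFIT1 is a standard interferon target, and ISG15 is the tag of the ISG15 pathway. Capitals mark the ISRE cores, with 25 bases on each side, in the direction of transcription. The stretches are chr19:17405720-17405785 on the minus strand for BST2, chr1:78620259-78620409 on the plus strand for IFI44L, chr1:27672251-27672373 on the minus strand for IFI6, chr10:89392482-89392554 on the plus strand for IFIT1 and chr1:1013359-1013424 on the plus strand for ISG15.
BST2: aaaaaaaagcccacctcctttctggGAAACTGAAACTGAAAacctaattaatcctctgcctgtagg
IFI44L: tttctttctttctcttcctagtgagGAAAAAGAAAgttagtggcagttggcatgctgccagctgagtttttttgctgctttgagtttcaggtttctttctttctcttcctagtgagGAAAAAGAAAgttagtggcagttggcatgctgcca
IFI6: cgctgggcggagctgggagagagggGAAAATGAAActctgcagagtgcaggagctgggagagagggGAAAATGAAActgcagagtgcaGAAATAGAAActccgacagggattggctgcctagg
IFIT1: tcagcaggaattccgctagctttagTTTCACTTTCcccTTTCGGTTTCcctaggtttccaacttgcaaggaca
ISG15: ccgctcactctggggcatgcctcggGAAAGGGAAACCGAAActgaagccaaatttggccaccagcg
In BST2 and ISG15 the 2 cores overlapped, so the capitals form 1 run. IFI44L held 2 cores 91 bases apart within a repeated stretch, IFI6 held 3 cores from position -156 to position -93 relative to its start, and IFIT1 held 2 cores in the other orientation. A match describes letters in the window and is no measurement of binding.

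STAG2 itself averaged 6.72 ± 0.21 in deficient and 8.91 ± 0.04 in corrected H4 arrays (SD, n = 3 each, log2 scale), and 6.85 ± 0.41 in knockout and 9.29 ± 0.01 in wild-type HCT116 arrays (SD, n = 2 each). In 42MGBA it averaged 5.23 ± 0.44 in deficient and 5.53 ± 0.12 in corrected arrays (SD, n = 3 each), a difference of -0.30 with an adjusted p of 1.00, so the 42MGBA labels are not checked by this gene. Array medians reached at most 5.05 in 42MGBA and ran from 6.23 to 6.30 in H4 and from 6.24 to 6.29 in HCT116. Values of 42MGBA are therefore on another scale, and levels are set side by side with the other lines only as the percentile of a row among all rows of its array. The mean interquartile range was also narrower, 3.18 in 42MGBA against 3.60 in H4 and 3.57 in HCT116, which bears on the size of differences there. Mesenchymal-type glioma markers were above the 50th percentile for 7 of 8 genes in H4, 7 of 8 in 42MGBA and 2 of 8 in HCT116. Epithelial and colorectal markers were above it for 5 of 12, 5 of 12 and 9 of 12 in the same order of lines. Neural and glial markers were mostly low in the lines labelled glioblastoma, with 1 of 8 above the 50th percentile in H4 and 2 of 8 in 42MGBA. In H4 GFAP was at 49.8, OLIG2 at 34.8 and S100B at 21.6. HCT116 also had 2 of 8 above the 50th percentile, so these counts do not set it apart from the other lines. Leukocyte markers were above it for 1 of 9 genes in each line.

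The lines differed in where the interferon set stood among the rows of their arrays. In H4, 42 of 45 members lay above the 50th percentile of their arrays on average, with a median of 78.2. In 42MGBA it was 37 of 45 with a median of 67.7, and in HCT116 26 of 45 with a median of 55.9. The percentile is taken over all rows of an array, and 12083 of the 33297 rows have no listed gene. The share of all genes above the 50th percentile was not computed, so these counts have no background. Percentiles rank probe set signals and not transcript numbers, so an order of genes within a line describes their probe sets and not their abundance. LGALS3BP, a secreted glycoprotein, was among the highest rows in each line at 97.6 in H4, 95.9 in 42MGBA and 95.1 in HCT116. IFI6, a mitochondrial and endoplasmic reticulum protein, stood at 94.5, 95.04 and 79.9 in the same order. TRIM25, the ubiquitin ligase that assists RIG-I, stood at 91.6 in both H4 and HCT116, and EIF2AK2, the double-stranded RNA kinase PKR, at 89.5 in 42MGBA and 91.7 in HCT116. IFI27, at 95.3 in H4, BST2, at 90.8 in H4 and 89.4 in 42MGBA, UBE2L6, at 89.5 in 42MGBA, and IFIT5, at 72.7 in HCT116, completed the highest 5 of their lines. At the low end RSAD2 stood at 24.9 in H4, 35.4 in 42MGBA and 21.3 in HCT116, below the array median everywhere. The lowest of the others in H4 were IFIT2 at 45.3, OASL at 48.0, DHX58 at 53.9 and ISG20 at 55.3. In 42MGBA they were IFIH1 at 25.9, HERC5 at 33.9, OASL at 34.9 and DDX60 at 39.6. In HCT116 they were SAMD9L at 14.0, IFI44L at 15.7, IFI44 at 15.8 and GBP2 at 19.0, 4 genes that were far higher in H4.

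Among the cultures with functional STAG2, H4 corrected arrays expressed most of the set at higher levels than HCT116 wild-type arrays. Of the 44 tested members 34 passed an adjusted p of 0.05 (limma): 32 were higher in H4, against 23.7% of all tested genes, and 2 were lower, against 29%. The median member difference was 1.21 on the log2 scale, against -0.07 over all tested genes. The 2 lines also differ in tissue of origin and in much else, and these cannot be told apart here.

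TRIM22, an antiviral ubiquitin ligase, had values of 9.74, 9.91 and 9.84 in the H4 corrected clones 8-1, 8-3 and 88-1, and 4.91 and 5.20 in the HCT116 wild-type clones 24 and 27. Its difference of 4.78 (SE 0.20, adjusted p = 4.41e-11) is a 27.4-fold higher level in H4. IFI44L had 7.88, 8.77 and 8.68 in H4 corrected clones and 3.53 and 3.82 in HCT116 wild-type clones (27.2-fold higher, adjusted p = 7.42e-06). SAMD9L, a growth-restraining antiviral factor, had 8.15, 8.46 and 8.74 in H4 and 3.74 and 3.69 in HCT116 (26.6-fold higher, adjusted p = 5.31e-08). In HCT116 the rows of both genes stood at 15.7 and 14.0 of 100 on the percentile scale, and at such low signal an array fold tends to understate a difference. IFI44 (22.2-fold) and BST2 (18.5-fold) were the next largest. BST2, or tetherin, which holds budding virus at the cell surface, had 9.41, 9.53 and 9.42 in H4 corrected clones and 5.30 and 5.20 in HCT116 wild-type clones, with no overlap.

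By role, 6 effectors against viral RNA were higher in H4 and 1 was lower, of 11 tested. OAS1 and OAS2, which make the messenger that switches on RNase L, were higher by 2.68 (SE 0.24, adjusted p = 2.29e-07) and 3.41 (SE 0.37, adjusted p = 2.16e-06), and IFIT1, which binds RNA with a foreign cap, by 2.46 (SE 0.32, adjusted p = 1.29e-05). EIF2AK2 was the exception, with 8.998, 9.14 and 9.10 in H4 corrected clones and 9.83 and 9.81 in HCT116 wild-type clones (1.67-fold lower in H4, adjusted p = 0.000101). Of the 4 RNA sensors 3 were higher in H4, among them DDX60 by 0.93 (SE 0.29, adjusted p = 0.0139), while RIGI differed by -0.38 (adjusted p = 0.284). IFIH1, another of the 3, passed the filter on low values through H4 arrays alone. Its percentile was 50.8 to 63.1 in H4 arrays and 41.7 to 49.5 in HCT116 arrays. DDX60 lost its call without clone 88-1 (adjusted p = 0.0548), 24 (0.0727) or 27 (0.0584). All 5 genes listed as membrane and entry factors were higher. The transcription factors IRF1 and IRF9 were higher by 1.32 and 1.15 and IRF7, which amplifies type I interferon genes, was lower by a difference of -0.30 (adjusted p = 0.0297), a call lost without clone 8-3, 24 or 27 (adjusted p from 0.0928 to 0.128). In the ISG15 pathway, which attaches the ubiquitin-like ISG15 to proteins, only the conjugating enzyme UBE2L6 (0.91, adjusted p = 0.000967) and HERC6 (1.08, adjusted p = 0.000257) passed. ISG15 itself had 7.37, 7.23 and 7.19 in H4 corrected clones and 7.20 and 7.47 in HCT116 wild-type clones, with overlap. The smallest higher call was LGALS3BP at 0.76 (SE 0.18, adjusted p = 0.00212).

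**Figure D1:**
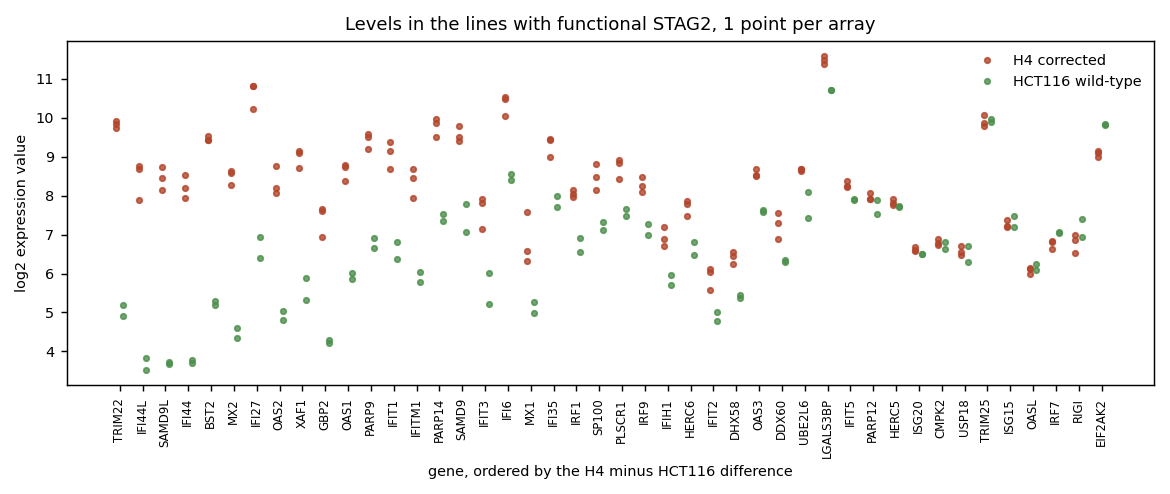
Log2 expression value of each of the 44 tested members (vertical axis) in the 3 H4 corrected arrays (red) and the 2 HCT116 wild-type arrays (green), 1 point per array, with genes ordered along the horizontal axis by the H4 minus HCT116 difference. The arrays of the 2 lines stand more than 4 log2 units apart on average for TRIM22, IFI44L, SAMD9L, IFI44, BST2 and MX2 on the left, and EIF2AK2 on the right is lower in H4.

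Within H4, the set differed little by STAG2 status. Of the 44 tested members 1 passed, against 3.31% of all tested genes: BST2, which was higher in deficient arrays. At an unadjusted p under 0.05 there were 4 members, against 16.4% of all tested genes. The median member difference was 0.05, against 0.02 over all genes, and 26 members had a positive difference, a direction that 54.4% of all genes shared. The differences ran from -0.49 for IFITM1 to 0.78 for MX1.

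BST2 had 9.93, 10.58 and 9.93 in the deficient parental culture and clones 10 and 12, and 9.41, 9.53 and 9.42 in corrected clones 8-1, 8-3 and 88-1. Every deficient array was above every corrected one, with clone 10 well above the other arrays. The group means were 10.15 ± 0.37 and 9.46 ± 0.07 (SD, n = 3 each), a 1.61-fold higher level (log2 difference 0.69, SE 0.16, adjusted p = 0.0306). The call was kept without the parental array (difference 0.80, adjusted p = 0.0176) and without clone 12 (0.79, adjusted p = 0.0356). It was lost without clone 10 (0.47, adjusted p = 0.0757), where the difference was smallest. It was also lost without 8-1 (0.67, adjusted p = 0.0892), 8-3 (0.73, adjusted p = 0.0747) or 88-1 (0.67, adjusted p = 0.0876), with H4 fitted alone (0.69, adjusted p = 0.147) and with the related clones 8-1 and 8-3 averaged (0.70, adjusted p = 0.0846), where the difference stayed about as large.

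The next members by p did not pass. IFI35, a partner of the protein NMI, had 9.50, 10.20 and 9.64 in deficient arrays and 8.99, 9.43 and 9.45 in corrected arrays (difference 0.49, adjusted p = 0.154). TRIM22 had 9.60, 9.69 and 8.90 in deficient and 9.74, 9.91 and 9.84 in corrected arrays (-0.44, adjusted p = 0.219). IRF7 had 7.04, 6.98 and 6.93 in deficient and 6.82, 6.62 and 6.83 in corrected arrays (0.23, adjusted p = 0.243). In these 3 genes the groups did not overlap, but the differences did not pass over all genes. PARP12, an ADP-ribosyltransferase, had a difference of 0.32 (adjusted p = 0.317) and its groups overlapped. Together 4 members had deficient arrays all above corrected ones (BST2, IFI35, IRF7 and OASL), against 12.1% of all genes, and 1 had them all below (TRIM22), against 8.68%. Both shares of the members are near or below the background. OASL passed the filter on low values through 2 arrays alone, H4 clone 10 (percentile 50.6) and HCT116 knockout clone 7 (54.9). Its separation in H4 is therefore partly tied to the filter.

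In 42MGBA no member passed: 0 of 44 by limma, against 0% of all tested genes, and 1 at an unadjusted p under 0.05 (IRF7), against 3.95%. The lowest adjusted p of any member was 1.00. The median difference was 0.09, against -0.03 over all genes, and the difference was above 0 for 30 members, where 39.7% of all genes had that sign. The deficient arrays were all above the corrected ones for 0 members (2.57% of all genes) and all below for 3, IRF7, IFI35 and SP100 (6.33% of all genes).

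IRF7 had 5.65, 5.42 and 5.60 in the deficient parental culture and clones 53 and 92, and 5.72, 5.96 and 5.73 in corrected clones 53-1, 53-7 and 92-6 (difference -0.25, SE 0.10, adjusted p = 1.00). Its difference in H4 had the other sign, and the test between the 2 lines, whose scales differ, gave 0.48 (adjusted p = 0.177). SAMD9, which lies beside SAMD9L on chromosome 7 and restrains poxviruses, had 6.05, 6.97 and 5.84 in deficient and 5.96, 5.87 and 5.57 in corrected arrays (difference 0.49). IFI6 had 8.71, 10.26 and 8.97 in deficient and 8.99, 8.68 and 8.63 in corrected arrays (difference 0.55). In both genes clone 53 alone was far above the other 5 arrays, which lay close together. PARP9, a partner of the ubiquitin ligase DTX3L, differed by 0.33, and IRF1, a transcription factor that responds to type II interferon, by -0.39, both with an adjusted p of 1.00.

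In HCT116 no member passed either: 0 of 44 by limma, against 0.131% of all genes, and 1 at an unadjusted p under 0.05 (SAMD9), against 7.83%. The lowest adjusted p was 0.587, and the median difference was 0.08, against -0.01 over all genes, with 29 positive differences (46.6% of all genes). SAMD9 had 8.46 and 7.97 in knockout clones 7 and 21 and 7.06 and 7.79 in wild-type clones 24 and 27 (difference 0.79, SE 0.32). HERC6, a HECT-type ligase, had 7.24 and 6.91 in knockout and 6.46 and 6.80 in wild-type clones (0.44, adjusted p = 0.644). USP18, the protease that removes ISG15 and damps the type I receptor, differed by 0.31, OASL by 0.21 and OAS3 by 0.25, with adjusted p of 0.690, 0.740 and 0.749. Knockout clones were both above both wild-type clones for 11 members (18.5% of all genes) and both below for 2, OAS1 and GBP2 (22.1%). The 11 were OAS2, OAS3, EIF2AK2, ISG20, IFIH1, HERC6, USP18, BST2, SAMD9, PARP14 and SP100.

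The STAG2 differences were also compared between lines, with the narrower scale of 42MGBA uncorrected. No member passed in any of the 3 tests of a difference between lines (limma). The counts were 0 of 44 for H4 against 42MGBA (0.254% of all genes), 0 for H4 against HCT116 (0.293%) and 0 for 42MGBA against HCT116 (0.0231%). At an unadjusted p under 0.05 there were 4, 0 and 0 members in the same order, against 11.3%, 13.5% and 4.85% of all genes. For BST2 the H4 difference exceeded that of 42MGBA by 0.74 (adjusted p = 0.210) and that of HCT116 by 0.42 (adjusted p = 0.490), so the BST2 call in H4 is not shown to differ from the other lines. With 2 or 3 arrays a group the intervals are wide: for MX1 in H4 the 95% interval of the difference ran from -0.30 to 1.86.

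**Figure D2:**
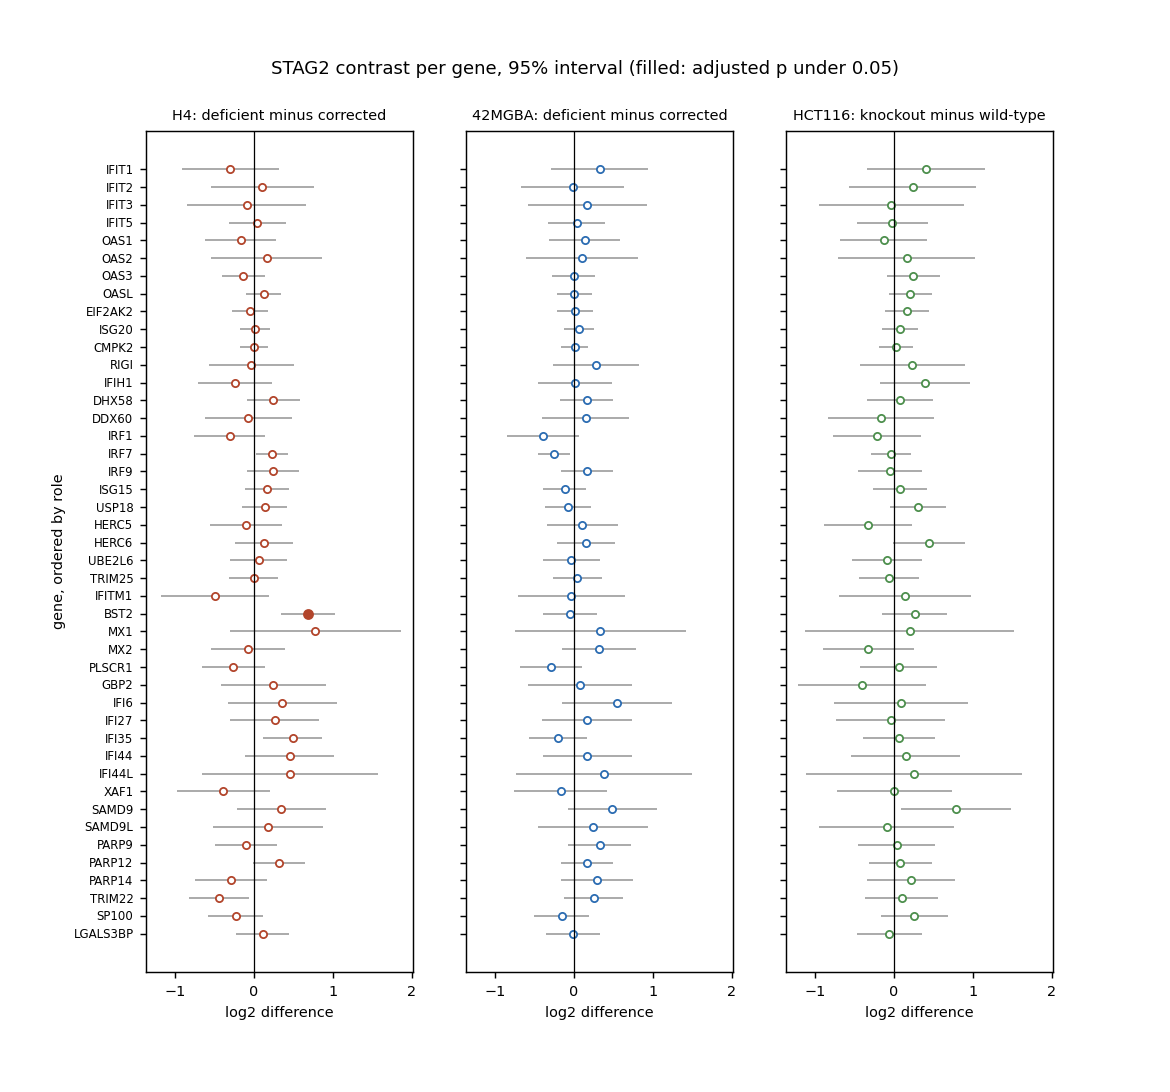
Log2 difference of deficient minus corrected arrays in H4 and 42MGBA and of knockout minus wild-type arrays in HCT116 (horizontal axis), with its 95% interval, for the 44 tested members in order of role (vertical axis). BST2 in H4 is the filled point, the single call of the 3 panels, and the intervals of IFI35, TRIM22 and IRF7 in H4, IRF7 in 42MGBA and SAMD9 in HCT116 also leave out 0.

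Within H4 and 42MGBA, 1 array of each line stood above the others for most members. In H4, clone 10 had the highest value of the 6 arrays for 32 of 44 members, against 23.4% of all tested genes, and its members stood 0.38 above their line mean at the median (all genes -0.01). The other non-recombinant clone, 12, had the lowest value for 22 members, against 15.5% of all genes, and corrected clone 8-1 for 16, against 17.1%. In 42MGBA, clone 53 had the highest value for 34 of 44 members, against 16.5% of all genes, and stood 0.38 above the line mean at the median (all genes -0.02). The parental 42MGBA culture was lowest for 21, against 15.9%. In HCT116 knockout clone 21 was highest for 21 (27.6% of all genes) and wild-type clone 24 lowest for 19 (21.1%). These counts describe single arrays picked out by their values, so no test is given. The 32 include OASL, which passed the filter only through H4 clone 10 and HCT116 knockout clone 7.

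**Figure D3:**
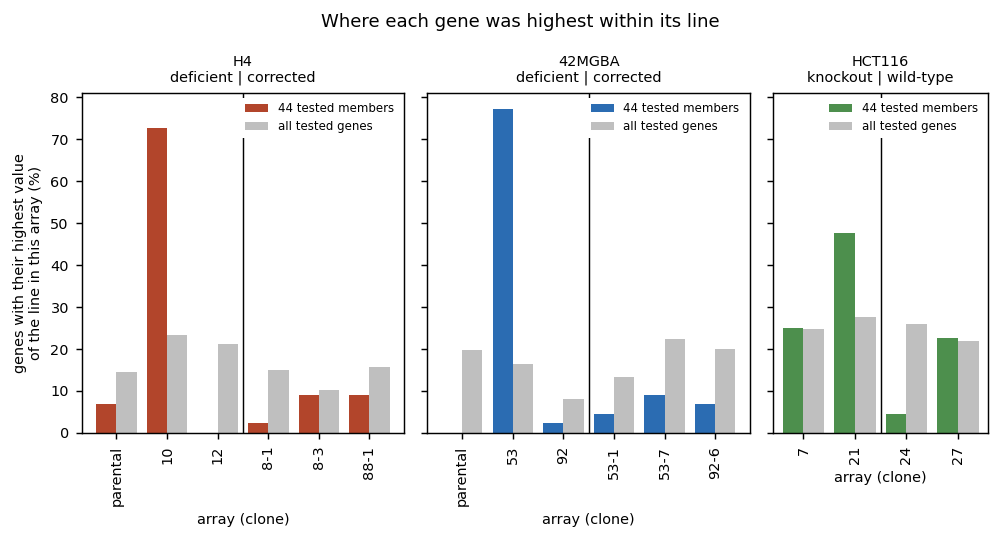
Share of genes (vertical axis, percent) whose highest value within a line fell in each array (horizontal axis, deficient or knockout left of the line, corrected or wild-type right), for the 44 tested members in colour and all tested genes in grey. Clone 10 of H4 holds the highest value of 32 members and clone 53 of 42MGBA that of 34, and the colour and grey bars of HCT116 knockout clone 7 and wild-type clone 27 are of about equal height.

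Both clones were labelled deficient, and the sign of each line's median depended on that clone. Without clone 10 the median member difference in H4 was -0.12, with 17 positive differences, and without clone 53 that in 42MGBA was -0.11, with 16. In HCT116 the median ran from -0.00 without knockout clone 21 to 0.19 without wild-type clone 27. At the median over members the other deficient arrays lay at or below their line mean: the deviation was -0.05 for the H4 parental culture, -0.21 for H4 clone 12, -0.20 for the 42MGBA parental culture and -0.06 for 42MGBA clone 92.

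The highest member by distance in clone 10 was MX1, a dynamin-like GTPase that blocks influenza virus. It had 7.28, 9.06 and 6.46 in the H4 deficient parental culture and clones 10 and 12, and 6.57, 6.32 and 7.58 in corrected clones 8-1, 8-3 and 88-1. Clone 10 was 1.49 above the next array, 88-1, and the range over the line was 2.74, the widest of any member in H4. IFI44L had 8.59, 9.77 and 8.33 in H4 deficient and 7.88, 8.77 and 8.68 in corrected arrays, a range of 1.90, again with clone 10 highest. OAS2 had 8.34, 9.33 and 7.83 in deficient and 8.07, 8.75 and 8.20 in corrected arrays (range 1.501). IFIT3, which stabilises IFIT1 on RNA, had 7.43, 8.31 and 6.86 in deficient and 7.14, 7.81 and 7.92 in corrected arrays (range 1.46). GBP2, a guanylate-binding GTPase that responds to type II interferon, had 7.32, 8.37 and 7.24 in deficient and 6.93, 7.60 and 7.66 in corrected arrays (range 1.44). In each of these 5 genes the deficient and corrected arrays overlapped, with clone 10 at the top and clone 12 lowest or next to lowest. Over the line 17 of 45 members had a range above 1 log2 unit, and the share of all genes was not computed. RSAD2, not tested, was also highest in clone 10, at 5.15 against 4.24 to 4.55 elsewhere in H4.

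In 42MGBA the widest range was that of IFI44L, at 2.41. It had 6.11, 8.52 and 7.42 in the deficient parental culture and clones 53 and 92, and 7.66, 7.06 and 6.18 in corrected clones 53-1, 53-7 and 92-6. The lowest arrays were the parental culture and 92-6, one from each labelled group. IFI6 (range 1.63), SAMD9 (1.40) and SAMD9L (1.29) followed, and in each clone 53 stood alone. SAMD9L had 6.01, 7.30 and 6.15 in deficient and 6.24, 6.31 and 6.17 in corrected arrays. IFIT3 (range 1.28) had 4.78, 6.05 and 5.55 in deficient and 5.18, 5.29 and 5.40 in corrected arrays. Over the line 11 members had a range above 1 log2 unit. In HCT116 3 did, SAMD9 (1.39), IFITM1 (1.22) and HERC5 (1.12), and IFIT1 (0.90) and IFIT3 (0.81) came next. HCT116 has fewer arrays and 42MGBA a narrower scale, and no share of all genes was computed. These counts are therefore not compared between lines. IFITM1, which blocks the fusion of viral and cell membranes, had 5.44 and 6.66 in knockout clones 7 and 21 and 5.77 and 6.05 in wild-type clones 24 and 27, so its 2 knockout clones were its lowest and highest arrays. HERC5, the main ligase for ISG15 in human cells, had 6.82 and 7.94 in knockout and 7.70 and 7.72 in wild-type clones, with the knockout clones likewise on both sides.

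**Figure D4:**
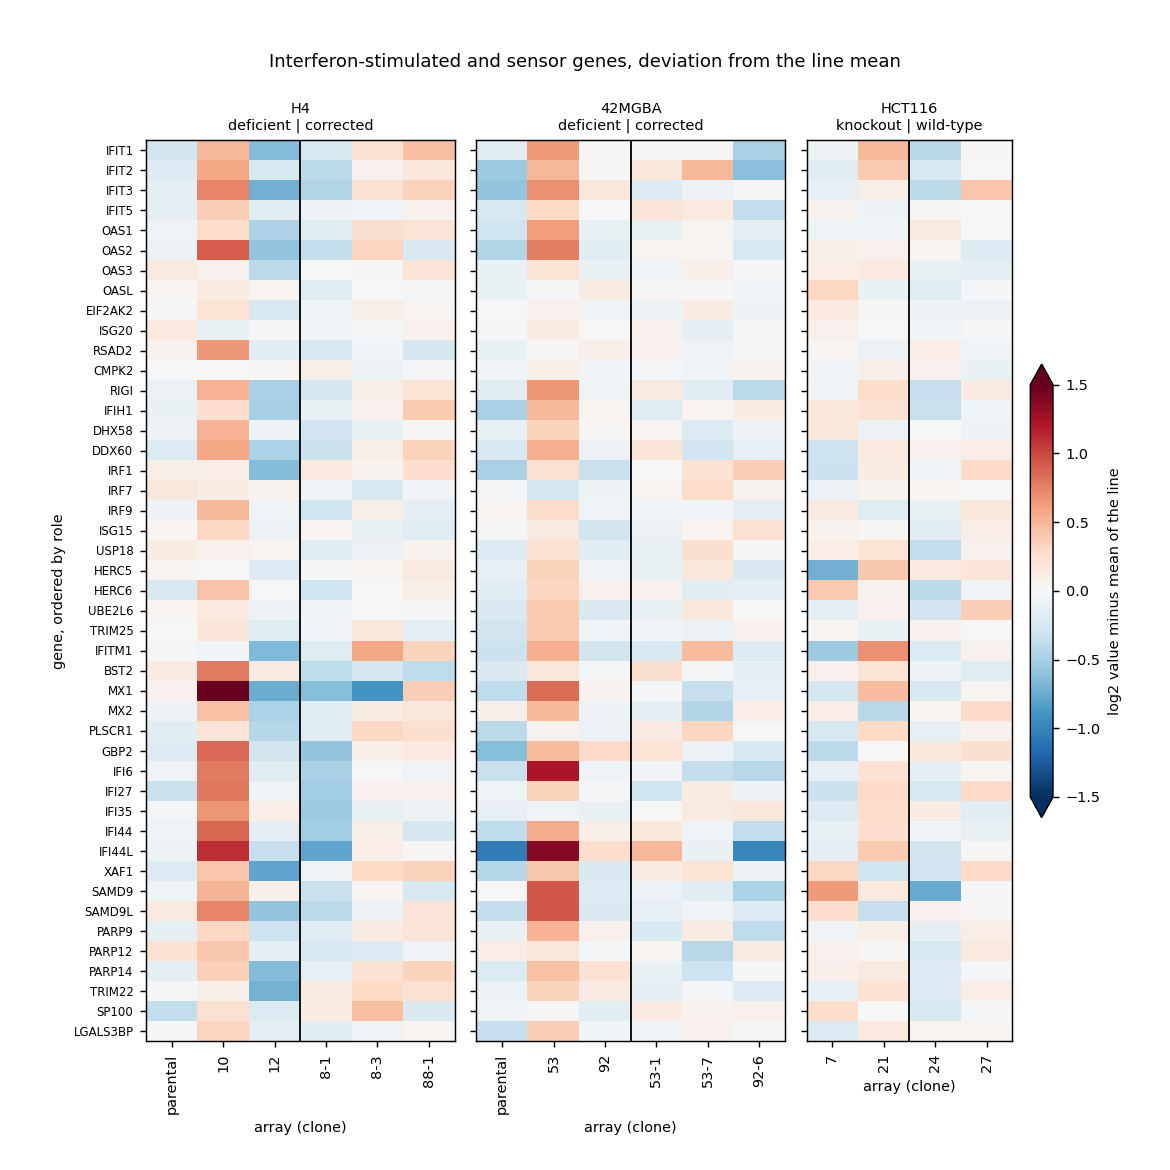
Log2 value of each of the 45 members with a row (vertical axis, by role) minus its mean over the arrays of the line, in each array (horizontal axis, by clone, deficient or knockout arrays left of the black line), on a colour scale from -1.5 in blue to 1.5 in red. H4 clone 10 and 42MGBA clone 53 form red columns through most roles, while IRF7, ISG20, CMPK2 and OASL stay pale in both.

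The members highest in each clone were also set side by side. In each of clone 10 and clone 53, 27 of 44 members had the highest value of their line, against 5.02% of all genes. Another 5 were highest only in clone 10, 7 only in clone 53, and 5 in neither (IRF1, IRF7, PLSCR1, SP100 and USP18). The 27 are 84.4% of the 32 in clone 10 and 79.4% of the 34 in clone 53. Since each clone was highest for most of the 44 members, a large overlap follows from those counts alone. Among the 27 the lead over the next array ran from 0.01 for TRIM25 to 1.49 for MX1 in clone 10. In clone 53 it ran from 0.0066 for IFIT2 to 1.27 for IFI6. Part of the count therefore rests on near ties. By role the 27 held 6 of 11 effectors, 3 of 4 RNA sensors (RIGI, DHX58 and DDX60) and 1 of 3 transcription factors (IRF9). They also held 3 of 6 genes of the ISG15 pathway (HERC6, UBE2L6 and TRIM25). The others were 2 of 5 genes listed as membrane and entry factors (MX1 and MX2), GBP2, and 11 of 14 other induced genes. The transcription factors IRF9 and IRF7 differed in this respect. IRF9, the DNA-binding part of the ISRE complex, had 8.33, 8.88 and 8.35 in H4 deficient and 8.10, 8.48 and 8.25 in H4 corrected arrays, and 6.79, 7.02 and 6.69 in 42MGBA deficient and 6.68, 6.69 and 6.61 in 42MGBA corrected arrays, with clones 10 and 53 on top. IRF7 was lower in clone 53 (5.42) than in every other 42MGBA array. ISG15 was highest in clone 10 (7.66) by 0.29, but in 42MGBA its highest value was 6.56 in corrected clone 92-6, against 6.46 in clone 53.

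The counts were also split by the ISRE core. Of the members tested, 14 of 23 with a core in their window were highest in both, as were 8 of 12 without a core and 5 of 9 not in the promoter table. SAMD9L, OAS1, RIGI and XAF1 had no core in the window and were highest in both clones. IFI44L, IFI6 and IFIT1, with the cores printed above, were also highest in both. ISG15 and BST2, whose windows hold the overlapping cores printed above, were highest in clone 10 alone. Some of these ranks turn on small gaps to the highest other array. In clone 10 the gap was 0.04 for OAS1, 0.04 for IFIT1 and 0.06 for XAF1. In clone 53 it was -0.08 for BST2 and -0.10 for ISG15. Whether the core goes with these ranks was not tested.

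The families of the 42MGBA clones allow a comparison of each pre-Cre clone with its own post-Cre clones. Clone 53 was above both 53-1 and 53-7 for 36 of 44 members, against 27.4% of all genes, with a median difference of 0.39 (all genes -0.03). For 34 of them this follows from clone 53 being highest of the whole line, so the count is no further evidence. Clone 92 was above 92-6 for 26 members, against 40.1% of all genes, with a median of 0.04 (all genes -0.05). With 1 pre-Cre array in each family, these are values with no test. Blocking on the family left 0 of 44 members called, against 0% of all genes, and 5 at an unadjusted p under 0.05, against 6.77%. Under that block the median was 0.26 (all genes -0.04) and 38 differences were positive, against 38.7% of all genes. The parental array does not enter that estimate. Leaving it out with no block already gave a median of 0.22, against 0.09 with all arrays. IFI6 and IFI44L had the largest differences within family 53, at 1.42 and 1.16.

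The families were also set against each other. The 3 arrays of the clone 53 family minus the 2 of the clone 92 family, with the label in the model, gave 0 of 44 members past the threshold, against 0% of all genes, and 5 at an unadjusted p under 0.05, against 5.02%. Of the member differences 39 were positive, against 51.2% of all genes, with a median of 0.19 (all genes 0.00). The 5 members were IFI44L (1.15, SE 0.38, adjusted p = 0.834), IFIT2 (0.75), SAMD9 (0.68), IFI6 (0.67) and IFIT5 (0.43). For all 5 both post-Cre clones of family 53 were above 92-6, while for SAMD9 and IFI6 clone 53 itself carried most of the difference.

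Around the members, other genes of the pathway gave 1 call by STAG2 status. Of 8 tested ligands and receptors, 10 JAK-STAT genes, 15 further sensors, adaptors and kinases, 8 nucleases and editors, and 10 genes of MHC class I presentation, 0 passed in any line. Nearest by p in H4 were the type I receptor chain IFNAR1 (0.34, adjusted p = 0.137), the kinase JAK1 (-0.25, adjusted p = 0.214), the adaptor MYD88 (0.37, adjusted p = 0.344), the RNase H2 subunit RNASEH2C (0.33, adjusted p = 0.155), the nucleotide hydrolase SAMHD1 (0.51, adjusted p = 0.160) and the peptide transporter TAP2 (0.38, adjusted p = 0.172). Of 18 further interferon-stimulated genes 1 passed: IFI30, a lysosomal thiol reductase, averaged 10.95 ± 0.32 in deficient and 10.33 ± 0.33 in corrected H4 arrays (SD, n = 3 each; difference 0.62, SE 0.16, adjusted p = 0.0478). In H4 3.31% of all tested genes passed. Within the list of further interferon-stimulated genes the nearest by p were SP110 in 42MGBA (0.39, adjusted p = 1.00) and TRIM5 in HCT116 (0.30, adjusted p = 0.630). Over all lists the lowest adjusted p in HCT116 was that of the RNA-processing enzyme PNPT1 (-0.43, adjusted p = 0.485), and the receptor chain IL10RB differed by 0.57 (adjusted p = 0.539).

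Of the 8 interferon ligand genes with a row, 1 lay above the 50th percentile in H4, 2 in 42MGBA and 1 in HCT116. IFNB1, the gene of interferon beta, had a mean percentile of 10.3 in H4, 8.8 in 42MGBA and 9.8 in HCT116. In H4 its value ran from 3.17 to 3.53, and clone 10 had the lowest, 3.17. In 42MGBA it ran from 2.37 to 2.68, with 2.51 in clone 53. A row this low carries little signal over background, so the order of the arrays for IFNB1 is not interpreted. The highest ligand row was that of IFNL3, at 67.3, 79.0 and 70.3 in the same order of lines. The type III genes are near-identical in sequence, so probe sets may not separate them. Whether interferon protein was present in any culture was not measured. On bulk arrays a larger share of responding cells and more RNA per cell cannot be told apart.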

How the data were processed

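Per the labels, each of 16 cultures gave total RNA for 1 Human Gene 1.0 ST array. The deposited values of 33297 rows are on a log2 scale, judged by their range. The submitters' processing notes name RMA and Affymetrix Expression Console, with versions not given in the sources used here. Precision is limited by the number of arrays. Of the rows, 19460 had 1 gene symbol, 1754 several and 12083 none listed; symbols were updated to RefSeq GRCh38.p14 through Entrez identifiers for 19429. The row with the highest mean stood for a gene, and a gene was tested if its row was above the array median on at least 2 arrays.

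The tests used limma 3.58.1 (R 4.3.3) over all 16 arrays in 6 groups that share 1 spread per gene, two-sided, with Benjamini-Hochberg adjustment over 12978 genes and a threshold of 0.05; the procedure was tested on simulated data. Arrays of a line correlated at 0.986 or more. The members, roles and lists were chosen with earlier results of these data known. Genes were named by rule: members past the threshold or with the 5 smallest p in a line, the 5 widest ranges, the 5 highest and 5 lowest percentiles, the 5 largest and 5 smallest H4 minus HCT116 differences among calls, and of each pathway list those called or nearest by p; other genes were named after their values were seen. Family pairing comes from the clone names. Alternatives were no filter or a stricter one, the mean of a gene's rows, quantile normalization, a mean-variance trend, each line alone, the family block, and leaving out arrays; fits within 1 family were chosen after seeing the data.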

Additional observations from a re-analysis of the deposited data

How the results depend on the processing

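The count of members called in H4 was 0 with H4 fitted alone and 0 with clones 8-1 and 8-3 averaged, and ranged from 0 to 1 when arrays were left out in turn (0 without clone 10, 8-1, 8-3 or 88-1); in these settings BST2 was the gene lost, with an adjusted p of 0.0846 when 8-1 and 8-3 were averaged. The counts in 42MGBA, in HCT116 and between the 42MGBA families were 0 under every alternative run. The count between H4 and HCT116 was 33 under the stricter filter and 30 to 34 with arrays left out. With arrays left out, the median member difference ran from -0.12 (without clone 10) to 0.15 in H4, from -0.11 (without clone 53) to 0.22 in 42MGBA and from -0.0017 (without knockout clone 21) to 0.19 (without wild-type clone 27) in HCT116. Under the replicate block by parent clone no call in 42MGBA changed, with 0 called and a median of 0.26. The parental array does not enter that estimate. Among the named members, 1 result reversed: IRF1 in 42MGBA was 0.12 within the clone 53 family alone, where 1 array stands on the deficient side. For named members 296 results under an alternative kept direction and side of the threshold and 12 lost the call, those of BST2 in H4 and of IRF7 and DDX60 between H4 and HCT116. The cause was not tested beyond the smaller number of arrays. Rows near the bottom of an array carry little signal over background, which limits the differences of low genes.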

Other observations

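Of 10 tested genes of MHC class I presentation, which interferon also induces, 8 were highest in H4 clone 10, against 23.4% of all tested genes, and 2 were highest in 42MGBA clone 53, against 16.5%; the difference between the clones was not tested. Of 18 further interferon-stimulated genes 9 were highest in clone 10 and 7 in clone 53, both above those shares of all genes. Of 8 nucleases and editors 2 were highest in clone 10 and 1 in clone 53, near those shares.

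The row shared by GBP1, GBP1P1 and GBP3 did not have its highest value in either clone. It had 8.60, 8.39 and 7.91 in the H4 deficient parental culture and clones 10 and 12, and 8.58, 8.55 and 8.55 in corrected clones 8-1, 8-3 and 88-1. In 42MGBA it had 7.59, 8.13 and 7.88 in the parental culture and clones 53 and 92, and 7.97, 7.60 and 8.28 in 53-1, 53-7 and 92-6. In HCT116 it had 5.25 and 5.32 in knockout clones 7 and 21 and 4.63 and 4.85 in wild-type clones 24 and 27.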
